A study of Mus musculus with 282 samples.

Results

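The 5 genes described here encode A20, the A20-binding proteins and CYLD, a group linked to feedback on NfkB signalling. They were chosen by name and read from the count tables by identifier, and they are 5 of the 55450 gene identifiers in those tables. The genes are Tnfaip3 (ENSMUSG00000019850), which encodes A20, Tnip1 (ENSMUSG00000020400), Tnip2 (ENSMUSG00000059866) and Tnip3 (ENSMUSG00000044162), which encode the A20-binding proteins ABIN-1, ABIN-2 and ABIN-3, and Cyld (ENSMUSG00000036712). All 5 passed the low-count filter in each test below.

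NfkB is held inactive in the cytoplasm by inhibitor proteins, and receptors such as the TNF receptor release it by building ubiquitin chains that recruit the kinase complex that marks the inhibitors for destruction. A20 is a ubiquitin-editing enzyme that takes this scaffold apart, and its gene is itself a classical NfkB target, which makes it a textbook example of negative feedback. ABIN proteins are named for binding A20, and members such as ABIN-1 bind ubiquitin and help to bring A20 to its substrates. CYLD is a separate deubiquitinase that removes linear and lysine-63-linked chains. What each protein does in these cells was not measured.

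The cells were GMPs (granulocyte-monocyte progenitors) from bone marrow, the precursors of neutrophils, other granulocytes and monocytes. They came from male and female mice of 12 to 19 weeks that were homozygous for GFP-p65, a fluorescent form of an NfkB subunit, and heterozygous for H2BmCherry, a fluorescent histone. Both alleles were carried by the treated and the control cells alike. The cells were kept for 8 h under a confocal microscope with TNF, a cytokine that activates NfkB, or with a blank control, and then picked one by one for Smart-Seq2, which amplifies polyadenylated RNA of a single cell. The sources used here give neither the TNF dose nor the time of its addition.

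The authors' deposited cell tables list 238 of the 282 samples as passed, 178 with TNF and 60 blank. A 1-plate experiment holds 67 of these cells and a 2-plate experiment holds 171. The tables also give each cell a response class (oscillatory, transient, sustained, non-responsive, unclear or outlier) and a cell cycle phase. Among TNF cells, 20 were oscillatory and 25 transient in the 1-plate experiment, and 36 were oscillatory and 51 transient in the 2-plate experiment. Non-responsive blank cells, the main control class, numbered 13 and 34. The cells had 182301 to 3380416 reads in genes, with a median of 1339522. In all, 28 cells had fewer than 8000 detected genes, and 26 of them were on Plate2 of the 2-plate experiment, 24 of the 28 being TNF cells. Levels are given as CPM, a cell's (or a sum's) reads of a gene scaled to a common total of reads in genes. CPM is not divided by gene length, so levels are compared between cells and classes but not between genes. Cells are not replicates of a condition. Tests were therefore made on reads summed per experiment, with the experiment as the replicate (n = 2). The sources used here do not say whether the experiments came from separate animals.

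In the RefSeq annotation of GRCm38.p6, Tnfaip3 lies at chr10:19000910-19015410 on the minus strand, Tnip1 at chr11:54910787-54962956 (minus), Tnip2 at chr5:34496096-34513979 (minus), Tnip3 at chr6:65590398-65634040 (plus) and Cyld at chr8:88696878-88751946 (plus). All are protein-coding genes, and all 5 matched a promoter window of the RefSeq table by symbol. The NfkB consensus motif was searched on both strands in the 250 bases before each transcript start. Of all 32851 windows in the table, 1281 (3.90%) held a match. Matches were found for Tnfaip3, Tnip1, Tnip3 and Cyld. All sites found are printed below, and whether they bear on the levels of these genes was not tested. Each runs 5′ to 3′ on the strand of the gene, with the matched bases in capitals.
Tnfaip3, 125 to 116 bases before the start, chr10:19015516-19015545: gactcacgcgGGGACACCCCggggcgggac
Tnfaip3, 12 to 3 bases before the start, chr10:19015411-19015432: aatttccatcGGAAATCCCCct
Tnip1, 58 to 47 bases before the start, chr11:54962978-54963007: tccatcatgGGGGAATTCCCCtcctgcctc
Tnip3, 54 to 45 bases before the start, chr6:65590334-65590363: gagacatcctGGGAAATCCCagttacatgg
Cyld, 155 to 146 bases before the start, chr8:88696863-88696892: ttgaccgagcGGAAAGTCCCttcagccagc

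The Tnfaip3 window held 2 matches at separate sites. With overlapping matches and both strands counted, 273 windows (0.831%) in the table held 2 or more matches, those of Tnip1 and Tnip3 among them. The second Tnfaip3 site was printed with fewer flanking bases, since it ends next to the transcript start. In Tnip1 the capitals cover 4 overlapping matches on both strands, and in Tnip3 2 matches on opposite strands at the same bases. A further annotated start of Tnfaip3 had no match in its window, nor had the window of Tnip2. The Cyld window was counted from a transcript start at chr8:88697028, inside the gene as annotated. The bases printed for Cyld therefore span the first annotated base of the gene, chr8:88696878. A match of letters is a description of the window and not a measured binding site.

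Whether TNF cells differed from blank cells was asked first, over all response classes. Transcripts of Tnfaip3, Tnip1 and Tnip3 were more abundant in TNF cells in both experiments, while Tnip2 and Cyld stood at nearly the same level with and without TNF. Of the 5 genes, 1 passed the test: Tnip3 rose 6.07-fold. The fitted differences of Tnfaip3 (14.5-fold) and Tnip1 (3.16-fold) did not pass after adjustment over all genes. Among all genes tested, 69 of 15479 were called in either direction (0.446%).

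A20 itself was nearly undetected in blank cells of the 1-plate experiment. Tnfaip3 had a read in 3 of 16 blank cells there, with 19 reads in all, a median of 0 CPM and a highest cell of 10.9 CPM. With TNF it had a read in 47 of 51 cells, from 0 through a median of 64.2 CPM to 268 CPM, and 43 of the 51 cells lay above the highest blank cell. In the 2-plate experiment the blank cells were less uniform. Tnfaip3 had a read in 28 of 44 of them, with a median of 3.43 CPM and a highest cell of 112 CPM. The 127 TNF cells ran from 0 through a median of 63.6 CPM to 1345 CPM, and 43 of them exceeded the highest blank cell, while 6 of 44 blank cells exceeded the TNF median. The median TNF cell was thus at a like level in both experiments, whereas the blank cells were not.

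Summed over cells, Tnfaip3 stood at 79.8 CPM with TNF and 1.25 CPM in blank cells of the 1-plate experiment, and at 126 and 21.9 CPM in the 2-plate experiment. After scaling for library composition, the ratio was 62.6-fold in the first and 6.03-fold in the second. The direction was the same in both experiments and the size was not. The joint log2 fold change was 3.86 ± 0.75 (SE), with an adjusted p of 0.151 in edgeR's quasi-likelihood test (n = 2 experiments). The 2 plates of the second experiment were also unequal in their blank cells, with 12.3 CPM of Tnfaip3 on Plate1 and 31.3 CPM on Plate2.

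Tnip1 encodes ABIN-1, which links A20 to ubiquitinated targets. Unlike Tnfaip3 it was found in nearly every cell regardless of treatment: all 178 TNF cells and 59 of 60 blank cells had a read. In the 1-plate experiment the blank cells ran from 2.22 through a median of 58.4 to 140 CPM and the TNF cells from 33.6 through 200.5 to 782 CPM. In the 2-plate experiment the blank cells ran from 0 through 89.1 to 202 CPM and the TNF cells from 3.33 through 212 to 632 CPM. The highest blank cell was exceeded by 38 of 51 and 69 of 127 TNF cells, and no blank cell in either experiment reached the TNF median. The summed level was 4.14-fold higher with TNF in the first experiment and 2.43-fold in the second. Over both experiments the log2 fold change was 1.66 ± 0.22 (SE), with an adjusted p of 0.0697 in edgeR's test.

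Tnip3 encodes ABIN-3, the ABIN known as inducible by inflammatory stimuli. It had a read in 50 of 51 and 120 of 127 TNF cells, against 6 of 16 and 22 of 44 blank cells. The TNF cells of the 1-plate experiment ran from 0 through a median of 83.7 to 497 CPM, and those of the 2-plate experiment from 0 through 77.6 to 597 CPM. The median blank cell was at 0 CPM in the first experiment and at 0.28 CPM in the second, but the highest blank cells reached 139 and 185 CPM. Single blank cells thus carried as much Tnip3 as the upper TNF cells, and only 14 of 51 and 18 of 127 TNF cells exceeded the highest blank cell. The summed level was 8.48-fold and 4.47-fold higher with TNF. The joint log2 fold change was 2.60 ± 0.27 (SE), with an adjusted p of 0.0355 in edgeR's test.

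That call changed with the cells and the model used. In the 1-plate experiment a single blank cell held 82.7% of its group's Tnip3 reads, which raised the control level. Without the highest cell of each sum the log2 fold change was larger, at 3.60, but the adjusted p was 0.214 in edgeR's test. Without Plate1 of the 2-plate experiment it was 2.32 with an adjusted p of 0.203. The adjusted p in edgeR's test was 0.0640 with sums per plate, 0.513 with no term for experiment (no replicate block) and 1 with spike-in factors.

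Tnip2, which encodes ABIN-2, did not share this pattern. It had a read in 47 of 51 and 115 of 127 TNF cells and in 13 of 16 and 42 of 44 blank cells. Its medians were 28.7 CPM with TNF and 21.9 CPM in blank cells of the 1-plate experiment, and 34.6 and 33.9 CPM in the 2-plate experiment. The groups overlapped almost wholly, with 8 of 16 and 20 of 44 blank cells above the TNF median. The joint log2 fold change was -0.02 ± 0.19 (SE), with an adjusted p of 0.991 in edgeR's test.

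Cyld also stood at like levels. Its median was 51.4 CPM with TNF and 47.1 CPM in blank cells of the 1-plate experiment, and 42.2 CPM in both groups of the 2-plate experiment. The highest Cyld level of the 1-plate experiment, 319 CPM, was in a blank cell that held 38.3% of the Cyld reads of its group. The joint log2 fold change was -0.00 ± 0.20 (SE), with an adjusted p of 0.9997 in edgeR's test. The sign of the Tnip2 and Cyld differences turned under several of the other settings, as listed in the closing section. Across all genes the median log2 fold change was 0.03, and the middle of the 5 values was that of Tnip1.

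**Figure D1:**
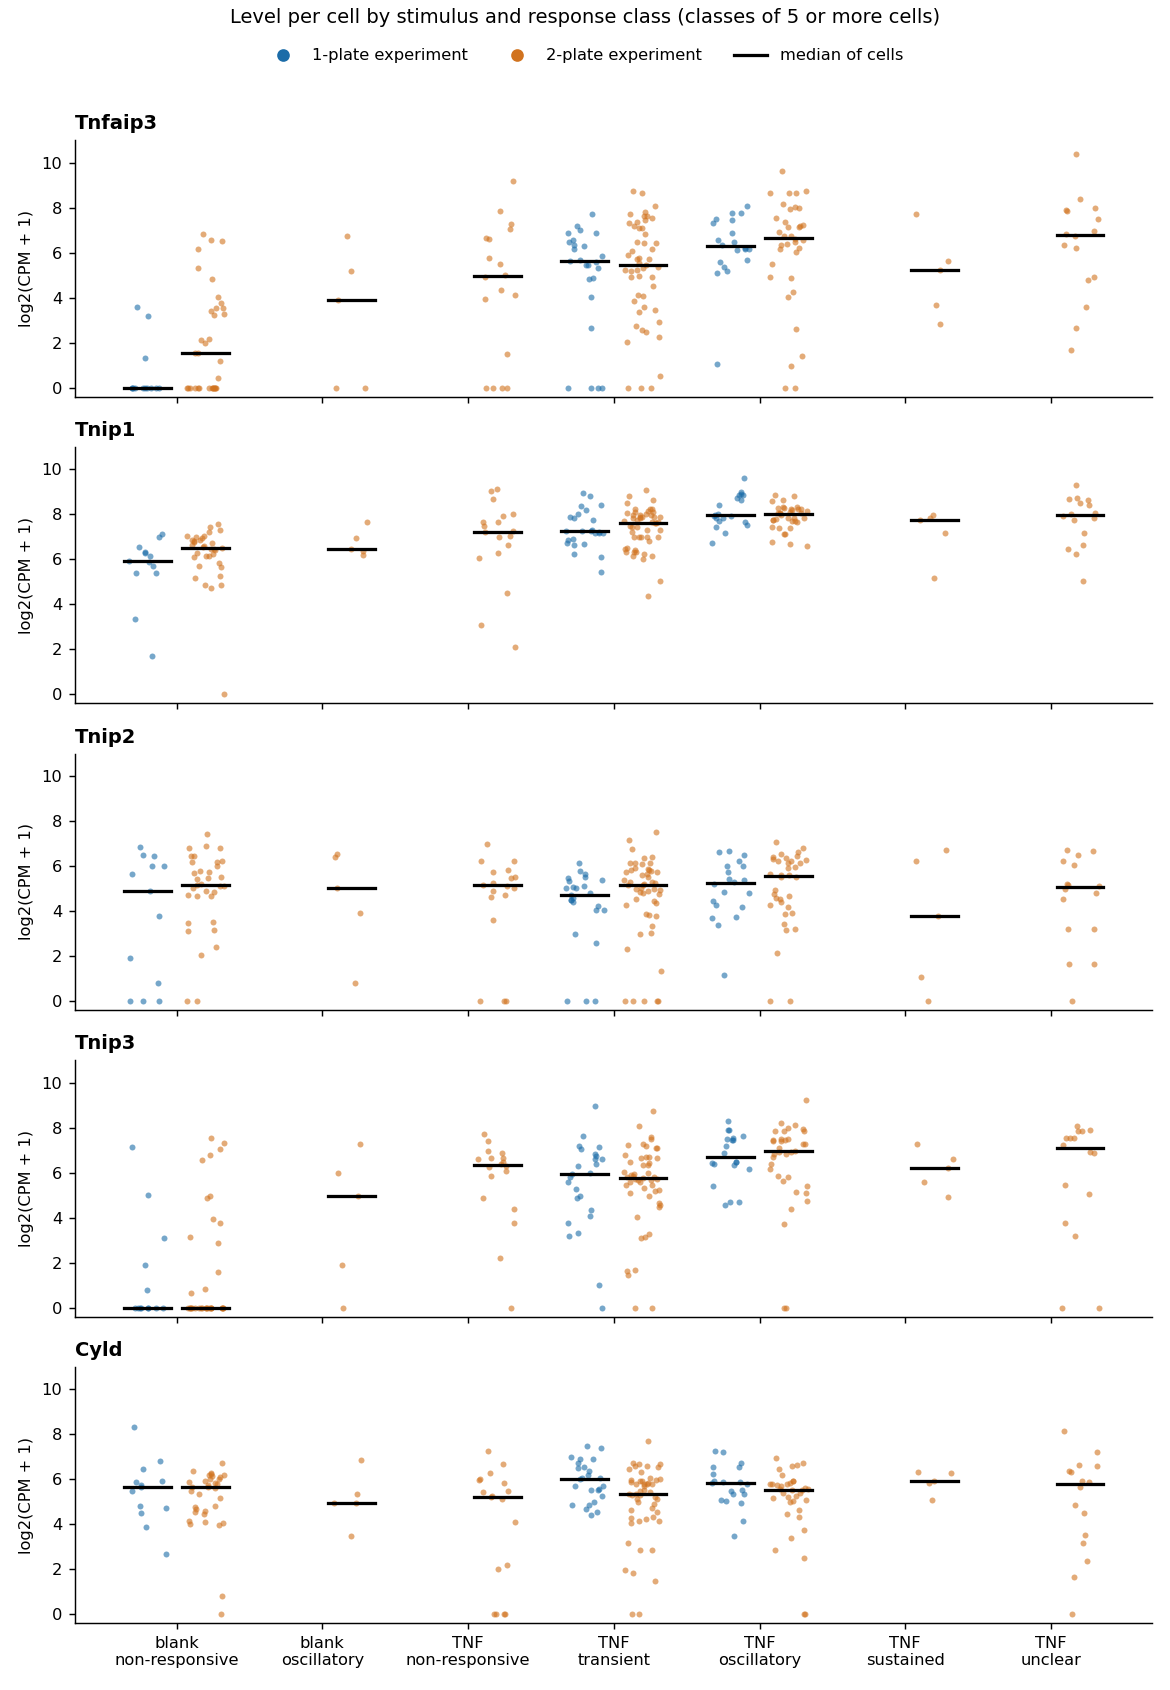
Level of each gene in single cells, as log2(CPM + 1), for classes of 5 or more cells. Columns are stimulus and response class, each point is 1 cell, colours mark the 2 experiments and black bars are medians over cells. Tnfaip3 and Tnip3 have their lowest medians in non-responsive blank cells, where the median of Tnip3 is 0 in both experiments. In the 2-plate experiment the median of Tnip1 is 88.7 CPM in non-responsive and 87.4 CPM in oscillatory blank cells, below every TNF class. Tnip2 and Cyld overlap between all columns. The median of Tnip2 runs from 12.9 CPM in sustained to 46.5 CPM in oscillatory TNF cells of the 2-plate experiment.

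The response classes allow a narrower comparison, between TNF cells with an oscillatory response and blank cells without a response. Here 3 of the 5 genes rose, namely Tnfaip3, Tnip1 and Tnip3. Their fitted folds were 19.1, 3.92 and 8.21. Tnip2 and Cyld did not pass the test. Of all genes, 390 of 16586 were called in either direction (2.35%), so the genes called include many beside these.

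In the 1-plate experiment all 20 oscillatory cells had a Tnfaip3 read, with a lowest value of 1.06, a median of 76.5 and a highest of 268 CPM, against 3 of 13 non-responsive blank cells. A read was present in 34 of 36 oscillatory cells of the 2-plate experiment, with a median of 101 and a highest of 787 CPM. The 34 non-responsive blank cells of that experiment had a median of 1.90 and a highest of 112 CPM, and 20 of them had a read. The sums differed 71.4-fold and 10.4-fold. The joint log2 fold change of Tnfaip3 was 4.26 ± 0.62 (SE), with an adjusted p of 0.0288 in edgeR's test. Without Plate1 of the 2-plate experiment it was 4.09 with an adjusted p of 0.0837 in edgeR's test, and without Plate2 it was 4.96 with an adjusted p of 0.0162.

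Tnip1 ranged from 105 through a median of 248 to 782 CPM in oscillatory cells of the 1-plate experiment and from 96.1 through 256 to 462 CPM in those of the 2-plate experiment. Non-responsive blank cells had medians of 59.4 and 88.7 CPM and highest values of 140 and 186 CPM. Every oscillatory cell thus exceeded the median of the blank cells in its experiment. The sums differed 5.50-fold and 2.85-fold, and the joint log2 fold change was 1.97 ± 0.24 (SE) with an adjusted p of 0.0175 in edgeR's test.

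Tnip3 gave the smallest adjusted p of the 5 genes in this comparison. Oscillatory cells had medians of 103 and 122 CPM in the first and second experiment, and a read in 20 of 20 and 34 of 36 cells. Non-responsive blank cells had medians of 0 in both, and a read in 5 of 13 and 14 of 34 cells. The sums differed 9.71-fold and 7.11-fold. For both together the log2 fold change was 3.04 ± 0.19 (SE), with an adjusted p of 0.00355 in edgeR's test, and without the highest cell of each sum it was 4.02 with an adjusted p of 0.0702.

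Some of these calls also depended on the model. In edgeR's test with no term for experiment (no replicate block) the adjusted p was 0.210 for Tnfaip3 and 0.105 for Tnip1, and with spike-in factors it was 0.717 for Tnip1 and 0.158 for Tnip3.

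Tnip2 had a log2 fold change of 0.17 ± 0.19 (SE) and an adjusted p of 0.746 in edgeR's test. The corresponding values for Cyld were -0.11 ± 0.20 (SE) and 0.862. Cyld differed in direction between the experiments, at 0.766-fold in the first and 1.13-fold in the second.

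Transient TNF cells were set against the same non-responsive blank cells, so this comparison shares its controls with the one above. Of the 5 genes, 1 was called: Tnip3 rose 4.42-fold. Among all genes, 22 of 16586 were called in either direction (0.133%). Tnfaip3 and Tnip1 had fitted folds of 10.2 and 2.60 that did not pass the test.

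Tnip3 had a read in 24 of 25 and 49 of 51 transient cells, with medians of 60.9 and 53.1 CPM. Its log2 fold change was 2.14 ± 0.18 (SE), with an adjusted p of 0.0235 in edgeR's test. The call was lost without Plate1 of the 2-plate experiment (log2 fold change 1.78, adjusted p of 0.292 in edgeR's test) and without the highest cell of each sum (2.9998, adjusted p of 0.397). It was also lost in edgeR's test with no term for experiment (0.309) and with spike-in factors (adjusted p of 1). Tnfaip3 had a read in 21 of 25 and 48 of 51 transient cells, with medians of 48.1 and 43.03 CPM, and its log2 fold change was 3.35 ± 0.60 (SE) with an adjusted p of 0.174. Tnip1 had medians of 150.0 and 195 CPM, and its log2 fold change was 1.38 ± 0.23 (SE) with an adjusted p of 0.150 in edgeR's test. Tnip2 was lower in transient cells at 0.702-fold and 0.847-fold in the 2 experiments, with a log2 fold change of -0.37 ± 0.19 (SE) and an adjusted p of 0.706 in edgeR's test. Cyld had a log2 fold change of 0.01 ± 0.20 (SE) and an adjusted p of 1.

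Oscillatory and transient TNF cells received the same stimulus and differ in response class. Tnfaip3, Tnip1, Tnip2 and Tnip3 all had higher summed levels in oscillatory cells in both experiments, by 1.33-fold to 1.93-fold, and Cyld had lower ones. None of these differences passed the test (0 of 5 genes), against 33 of 16586 genes in either direction (0.199%). At an unadjusted p under 0.05 edgeR's test held 3 of the 5, Tnip3 (p = 0.00190), Tnip2 (0.0311) and Tnip1 (0.0396), beside 1679 of all genes. DESeq2 called 1 of the 5, Tnip3, with an adjusted p of 0.00267, among 630 of 16586 genes that it called.

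Tnip3 was 1.91-fold higher in oscillatory cells of the 1-plate experiment and 1.81-fold in those of the 2-plate experiment, with medians of 103 against 60.9 CPM and 122 against 53.1 CPM. Its log2 fold change was 0.90 ± 0.18 (SE), with an adjusted p of 0.128 in edgeR's test. Tnfaip3 was 1.93-fold and 1.79-fold higher, with medians of 76.5 against 48.1 CPM and 101 against 43.03 CPM. Its log2 fold change had the largest error of the 5, 0.91 ± 0.53 (SE), with an adjusted p of 0.645. Tnip1 was 1.67-fold and 1.33-fold higher (log2 0.59 ± 0.23, adjusted p of 0.459), and Tnip2 was 1.56-fold and 1.35-fold higher (log2 0.54 ± 0.19, adjusted p of 0.424 in edgeR's test). Cyld was at 0.863-fold and 0.974-fold (log2 -0.12 ± 0.20, adjusted p of 0.920). The median log2 fold change over all genes was -0.04, and the middle of the 5 values was again that of Tnip1.

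**Figure D2:**
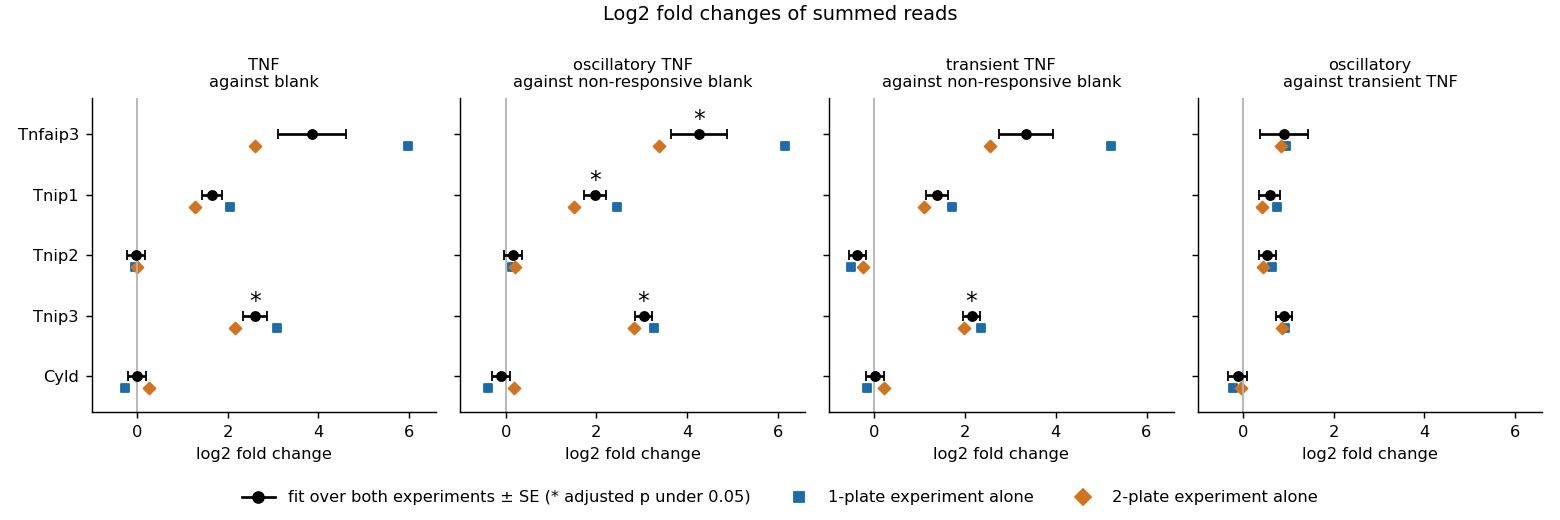
Log2 fold changes of the 5 genes in the 4 comparisons. Black points with bars are fits over both experiments ± SE, stars mark an adjusted p under 0.05, and squares and diamonds are the ratios within the 1-plate and the 2-plate experiment. Against blank cells Tnfaip3 shows the widest gap between the experiments, 62.6-fold and 6.03-fold in the first panel, while Tnip2 and Cyld stay near 0.

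The 2 classes also differed in cell cycle phase as the authors' tables give it. S-phase cells made up 2 of 20 and 2 of 36 oscillatory cells but 7 of 25 and 12 of 51 transient cells. Among TNF cells as a whole, summed Tnfaip3 was lowest in S phase, at 32.6 CPM against 94.8 in G1 and 91.1 in G2M in the 1-plate experiment, and at 70.8 against 84.7 and 161 CPM in the 2-plate experiment. Tnip3 in TNF cells was likewise lowest in S phase, at 77.6 against 160.5 and 96.6 CPM and at 68.3 against 129 and 112 CPM. Within G1 alone, Tnfaip3 stood at 169.7 CPM in 4 oscillatory cells against 15.6 CPM in 4 transient cells of the 1-plate experiment, and at 132 CPM in 12 against 55.2 CPM in 14 cells of the 2-plate experiment. Within G2M the gap in summed Tnfaip3 was narrower, at 94.9 against 86.1 CPM and 181 against 117 CPM. Tnip3 within G1 stood at 218 against 126 CPM and 210.0 against 58.2 CPM, and within G2M at 114 against 65.3 CPM and 122 against 106 CPM. By medians the Tnfaip3 order within G2M of the 1-plate experiment was the reverse, at 76.5 CPM in oscillatory against 82.8 CPM in transient cells. In the 2-plate experiment the gap in medians was not narrower in G2M, at 117 against 39.5 CPM, than in G1, at 106 against 42.5 CPM. In S phase, with both experiments pooled, summed Tnfaip3 was 28.99 CPM in 4 oscillatory cells against 63.5 CPM in 19 transient cells, and summed Tnip3 was 87.9 against 58.3 CPM. The part of phase in the class differences was not tested.

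Blank cells in S phase were few, and 0 of 3 in the 1-plate and 0 of 5 in the 2-plate experiment had a Tnip3 read. With so few cells a count of 0 sets no useful limit on the share.

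Several classes reached 5 cells in the 2-plate experiment only, so their values have no replicate. TNF cells classed as non-responsive had higher summed levels of Tnfaip3, Tnip1 and Tnip3 over all phases than non-responsive blank cells. The difference was not tested. Among the 18 non-responsive TNF cells, 14 had a Tnfaip3 read (77.8%, exact 95% interval 52.4% to 93.6%) and 17 had a Tnip3 read (94.4%, 72.7% to 99.9%). In the 34 blank cells without a response the shares were 58.8% (40.7% to 75.4%) and 41.2% (24.7% to 59.3%). These intervals cover counting error only. Summed Tnfaip3 was 62.5 CPM in the non-responsive TNF cells against 16.5 CPM in the non-responsive blank cells, summed Tnip1 was 241 against 95.5 CPM and summed Tnip3 was 87.2 against 22.3 CPM. Within G1 the order of summed Tnfaip3 was the reverse, at 7.47 CPM in 6 non-responsive TNF cells against 34.5 CPM in 9 non-responsive blank cells. It was 77.8 against 11.5 CPM in G2M and 124 against 4.06 CPM in S phase. Summed Tnip1 and Tnip3 were higher with TNF in each phase. Of these 18 TNF cells, 6 had fewer than 8000 detected genes, against 2 of the 34 blank cells. The 3 non-responsive TNF cells of the 1-plate experiment all had Tnfaip3 reads, at 23.4, 58.8 and 123 CPM. All 3 lay above the highest of the 13 non-responsive blank cells of that experiment, 10.9 CPM.

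The reverse case, oscillatory cells without TNF, comprised 5 blank cells of the 2-plate experiment. Tnfaip3 had a read in 3 of them, with a median of 13.9 CPM and a highest cell of 105 CPM that held 79.4% of the class's reads. Tnip3 had a read in 4 of 5, with a median of 30.1 CPM. Both medians lay above those of the non-responsive blank cells (1.90 and 0 CPM) and below those of the oscillatory TNF cells. On Plate1, which gave 2 of the 5 cells, summed Tnfaip3 was 0 CPM and summed Tnip3 was 1.73 CPM, so the higher levels came from the 3 cells on Plate2.

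The 5 sustained TNF cells had a median Tnfaip3 level of 36.8 CPM and a range of 6.02 to 209.5 CPM. The 16 TNF cells classed as unclear had the highest summed Tnfaip3 of all classes, 252 CPM, but 49.5% of those reads came from a single cell at 1345 CPM, and the median cell was at 108 CPM. By mean level per cell the order for Tnfaip3 in the 2-plate experiment was unclear, oscillatory, non-responsive, transient and sustained among TNF cells, followed by oscillatory and non-responsive blank cells. The plates did not share this order: summed Tnfaip3 of unclear cells was 74.9 CPM on Plate1 (4 cells), below oscillatory (153 CPM) and transient cells (78.99 CPM), and 357 CPM on Plate2 (12 cells). Non-responsive TNF cells stood above transient cells in mean Tnfaip3 (83.7 against 83.2 CPM). They stood below them in summed level (62.5 against 93.7 CPM) and in median (30.3 against 43.03 CPM). For Tnip3 the order by mean was oscillatory, unclear, sustained, non-responsive and transient TNF cells, again followed by the blank classes. For each of these 2 genes every class overlapped its neighbour in the order between the quartiles of its cells. The order of neighbouring classes is therefore not separated from the spread over cells. For Tnip1 a single pair of neighbours, sustained TNF and oscillatory blank cells with 5 cells each, had quartile ranges that did not overlap. In the 1-plate experiment, where 3 classes reached 5 cells, oscillatory TNF cells had the highest mean of Tnfaip3, Tnip1 and Tnip3, and overlapped transient cells between the quartiles. The quartile range of the blank cells lay below that of the transient cells for Tnfaip3, Tnip1 and Tnip3. For Cyld and Tnip2 the blank classes stood among the TNF classes and not below them.

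**Figure D3:**
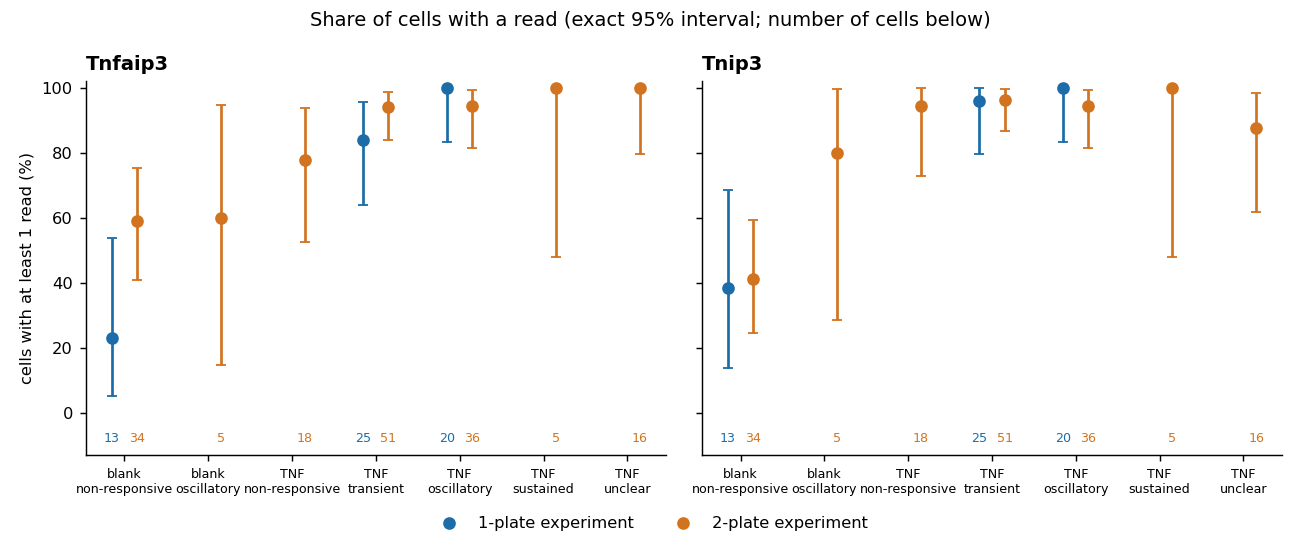
Share of cells with at least 1 read of Tnfaip3 or Tnip3 by stimulus and response class, for classes of 5 or more cells. Points are percentages, bars are exact 95% intervals, colours mark the experiments and the numbers give the cells in each class. Non-responsive blank cells have the lowest shares, 23.1% and 58.8% for Tnfaip3, and non-responsive TNF cells lie between them and the other TNF classes for Tnfaip3, at 77.8%, and among the other TNF classes for Tnip3, at 94.4%.

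A count of cells with a read depends on depth, so cells were also thinned to 458260 reads each, which left out 24 shallower cells. For the 1-plate experiment this gave Tnfaip3 in 42 of 46 TNF and 3 of 15 blank cells, and for the 2-plate experiment in 103 of 111 TNF and 24 of 42 blank cells. Tnip3 was detected in 45 of 46 and 5 of 15 cells, and in 105 of 111 and 21 of 42 cells. Before thinning, Tnfaip3 had been detected in 63.6% of the blank cells of the 2-plate experiment, and after it in 57.1%. The contrast between TNF and blank cells was thus also present at equal depth.

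All 5 genes were detected together in 42 of 51 and 98 of 127 TNF cells, and in 3 of 16 and 17 of 44 blank cells. The cells also show how far the levels of these genes went together within the TNF group. Over TNF cells, Spearman's rho between Tnfaip3 and Tnip1 was 0.640 (n = 51) and 0.403 (n = 127), between Tnfaip3 and Tnip3 0.414 and 0.501, and between Tnip1 and Tnip3 0.403 and 0.604. Each pair that included Tnip2 or Cyld was lower than each of these, between 0.017 and 0.271. Each gene's own rho with a cell's reads in TNF cells lay between -0.076 and 0.336. Cells of a plate share their library preparation, and the values are a description without a test.

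Tnfaip3 and Tnip3 were also compared cell by cell without TNF. In the 1-plate experiment all 3 blank cells with a Tnfaip3 read also had a Tnip3 read, and in the 2-plate experiment 17 of 28 did, while 5 of the other 16 had one. Spearman's rho between Tnfaip3 and Tnip3 in blank cells was 0.540 (n = 16) and 0.612 (n = 44). Tnfaip3 and Tnip1 had a rho of -0.548 in the 16 blank cells of the first experiment and of 0.350 in the 44 of the second.

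High A20 expression did not always come with high partners. The cell with the most Tnfaip3, an unclear TNF cell at 1345 CPM, had 362 CPM of Tnip1 and 186 CPM of Tnip3. The next, an oscillatory cell at 787 CPM, had 168 CPM of Tnip1, 12.0 CPM of Tnip3 and no Tnip2 read, and the third, a non-responsive cell at 583 CPM, had 76.04 CPM of Tnip1 and 3.62 CPM of Tnip3. Those last 2 cells had 6855 and 6590 detected genes, both under 8000, and the third had 276178 reads. All 10 cells with the most Tnfaip3 were TNF cells of the 2-plate experiment, and 9 of the 10 were in G2M.

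**Figure D4:**
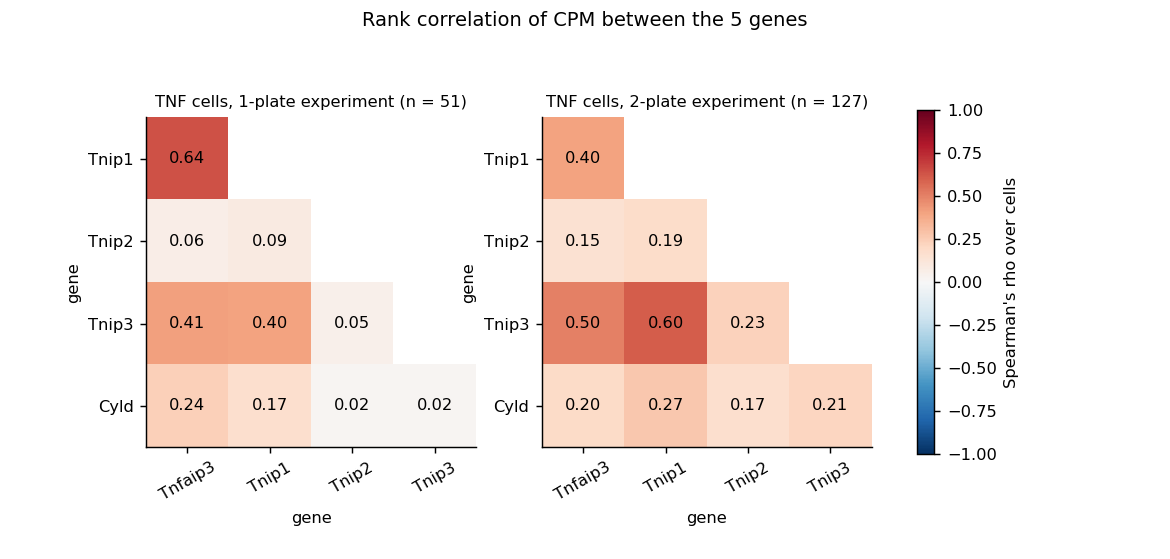
Spearman's rho between the CPM of each pair of the 5 genes over TNF cells, on the left for 51 cells of the 1-plate experiment and on the right for 127 cells of the 2-plate experiment. Darker red is a higher rho. The pairs among Tnfaip3, Tnip1 and Tnip3 lie between 0.403 and 0.640, and pairs with Tnip2 or Cyld at 0.271 or below.

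Over the 10 sums by experiment, stimulus and class, centred within each experiment, Tnip3 and Tnip1 were among the genes closest in pattern to Tnfaip3. Among 8434 genes of at least 10 CPM on average, Tnip3 ranked 8 and Tnip1 ranked 10 by Pearson correlation with Tnfaip3, at 0.966 and 0.961. Cyld (0.016) ranked 3987 and Tnip2 (-0.0037) ranked 4123. The 2 genes most like Tnfaip3 were ENSMUSG00000003283 (0.991) and ENSMUSG00000053175 (0.989), and the 2 least like it were ENSMUSG00000033487 (-0.961) and ENSMUSG00000029029 (-0.946). These sums share experiments and stimulus groups, so the values describe the pattern and carry no test.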

How the data were processed

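Single GMPs were processed by Smart-Seq2 and Nextera library preparation, per the labels' protocols. The authors' deposited tables hold whole-number read counts per mouse Ensembl identifier, and the submitters' processing notes name featureCounts, Subread 1.5.0 and SAMtools. For genome build, annotation and strand setting the sources used here give nothing, so overlapping genes were not told apart. Reads carry no molecular identifiers, so they are not independent molecules. The sources used here do not say how response classes and phases were assigned.

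Count columns and lines of the cell tables were tied to samples by well and plate. The 357 columns that match no sample were not used, 44 samples absent from the cell tables were in no comparison, and 0 cells had identical columns. The 92 spike-ins (ERCC, 0.169% of reads in cells of the 1-plate and 1.62% in the 2-plate experiment) were left out of library sizes and CPM. Reads were summed per experiment and stimulus (4 sums, 1 residual degree of freedom) or per experiment, stimulus and class where 5 or more cells were present (10 sums, with 2 residual degrees of freedom). They were fitted across all genes with edgeR 4.0.16 in R 4.3.3: TMM factors, the tool's default filter on low counts, a term for experiment, two-sided quasi-likelihood test, Benjamini-Hochberg adjustment over all genes tested, threshold 0.05. The spread was estimated per gene over all sums of a fit, moderated towards other genes (4.64 and 4.32 prior degrees of freedom). With the term for experiment, the p-values measure how far group differences varied between the 2 experiments, which may be technical. The scripts were tested on simulated counts. Promoter windows are from RefSeq (GRCm38.p6).

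The genes and lists were chosen with earlier results of these data known. The rule for named genes takes the 5 genes and the 2 most and 2 least like Tnfaip3 by Pearson correlation over the class sums. Of the 55450 identifiers, 0 matched the reference gene table, so the lists of other pathway genes and of markers of GMPs and other cell types, set by symbol, were not analysed here. Alternatives were DESeq2 1.42.0, other scalings, filters and sums, thinned cells, and fits without a plate, cell or experiment.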

Additional observations from a re-analysis of the deposited data

Results flagged for a closer look

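Of 10 groups of 4 to 10 values examined, 2 had a cell far from the others. The cut-off marks about 1 group in 20 by chance where values are normally distributed, which was not checked for CPM of single cells. The 10 groups were 2 classes of 5 cells, each read for 5 genes, so they were not independent. The highest of the 5 sustained TNF cells had 209.5 CPM of Tnfaip3, and the next had 47.8 CPM, a gap of 0.795 of the range. The highest of the 5 oscillatory blank cells had 116 CPM of Cyld, and the next had 39.9 CPM, a gap of 0.719 of the range.

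The 44 samples that the cell tables do not list had 1805 to 1130586 reads in genes, with a median of 115918, and no stimulus or class is known for them. Reads of Tnfaip3 were present in 19 of them, of Tnip1 in 22, of Tnip2 in 22, of Tnip3 in 18 and of Cyld in 19, each above the share of 6.82% that a count of 0 allows.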

How the results depend on the processing

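Tnfaip3, Tnip1 and Tnip3 were higher in the first-named group in all 13 fits of each comparison, and with ratios taken within each experiment alone. How many and which of the 5 genes were called varied, and the calls over all genes in the same fit are given beside each count. For TNF against blank it was 1 as reported (69 of all genes), 2 with DESeq2 (675), 0 with spike-in factors (3), 3 with no low-count filter (367), 3 with a stricter one (10 CPM in at least 50% of sums; 298), 3 with thinned cells (271), and 0 to 2 when a plate of the 2-plate experiment was left out. With sums per plate the 1 gene called was Tnip1 and not Tnip3 (89). In this comparison Tnip3 was called in 8, Tnip1 in 7 and Tnfaip3 in 3 of the 13 fits. For oscillatory TNF against non-responsive blank it was 3 as reported (390), 1 with spike-in factors (113) and 2 to 3 without a plate, and without the highest cell of each sum Tnip3 was no longer called. For transient TNF against non-responsive blank it was 1 as reported (22), 3 with DESeq2 (320), 0 with spike-in factors (22), 3 with no filter (84), 3 with the stricter filter (104), 3 with sums per plate (50), 3 with thinned cells (86), and 0 to 1 without a plate. For oscillatory against transient TNF it was 0 as reported (33) and 1 with DESeq2 (630) or the stricter filter (259), the gene being Tnip3. The experiment served as the replicate block. Without the replicate block 0, 1, 0 and 0 of the 5 genes were called in the 4 comparisons, in the order above, and 0, 34, 1 and 0 of all genes. Without Plate1 of the 2-plate experiment the calls of all genes fell to 1, 112, 8 and 12, from 69, 390, 22 and 33, and without Plate2 they were 177, 273, 25 and 0. Over all settings the calls ranged from 0 to 675, 34 to 1286, 1 to 320 and 0 to 630. Spike-in factors moved the median log2 fold change of all genes to 0.42, 0.56, 0.41 and 0.13, from 0.03, 0.02, 0.03 and -0.04. The alternative log2 fold changes of the 5 genes included ratios within an experiment alone, which have no test. Of all these values, 199 kept direction and call or, for a ratio, lay within the SE of the reported value. Another 22 passed and 15 no longer passed the threshold, 25 turned sign, and 19 ratios kept direction but lay beyond the SE. All that turned were of Tnip2 or Cyld.

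For Tnip2 the difference between TNF and blank turned to 0.38 with spike-in factors, 0.010 with no filter, 0.0040 with the stricter filter, 0.0030 with sums per plate and 0.11 without the highest cell of each sum, and its values were -0.092 to 0.083 without a plate. For Cyld in the same comparison the value was 0.40 with spike-in factors, 0.033 with no filter, 0.027 with the stricter one, 0.11 with sums per plate, 0.043 with thinned cells, 0.27 in cells of 8000 or more genes, 0.27 without the highest cell, 0.26 in the 2-plate experiment alone, and -0.10 to 0.13 without a plate. In oscillatory TNF against non-responsive blank, Cyld was at 0.49 with spike-in factors, 0.015 with sums per plate, 0.20 in cells of 8000 or more genes, 0.18 without the highest cell and 0.17 in the 2-plate experiment alone. In transient TNF against non-responsive blank, Tnip2 was at 0.027 with spike-in factors, and Cyld at -0.0096 without the replicate block, -0.17 in the 1-plate experiment alone and -0.094 to 0.12 without a plate. In oscillatory against transient TNF, Cyld was at 0.028 with spike-in factors. The cause of these changes was not tested. With 2 experiments, a difference that varied between them, such as that of Tnfaip3, had a wide error, and an experiment alone left no residual degree of freedom.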
